A study of Mus musculus with 8 samples.

Results

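The complement components C1qa, C1qb, C1qc, Cfb and Cfp were read from every probe set that the platform annotation gives to that gene alone. This gave 8 probe sets of the 45101 on the array and 5 of 18194 named genes. A sixth component named by the rule, C3, was not analysed here. Values were measured on 8 Affymetrix arrays of myeloid cells carrying CD11b and Gr-1, surface proteins of granulocytes and monocytes. The cells came from C57BL/6J mice that carry an HDC-EGFP transgene and either have or lack Hdc, the gene of the histamine-making enzyme histidine decarboxylase.

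The 4 groups were the colon tumor pool labelled HDC-KO (HDC-EGFP/HDC-KO mice), the wild-type colon tumor pool (HDC-EGFP mice), the HDC-KO bone marrow pool (HDC-EGFP/HDC-KO) and the wild-type bone marrow pool (HDC-EGFP). The tumor cells came from 5 mice aged 7 months per group, given azoxymethane, a carcinogen, and then 10 days of dextran sodium sulfate, an irritant of the colon epithelium. From 10 to 12 tumors, taken 22 to 24 weeks later, were pooled. The marrow cells came from 3 mice per group aged 3 to 4 months with no such treatment named, and their labels add a gate for HDC-expressing cells that the tumor labels do not name. The sample labels give all mice the HDC-EGFP transgene, while the series' design text calls the tumor mice WT and HDC-KO. Each group had 2 arrays that the labels call technical replicates, so p-values here measure each difference against technical spread alone and say nothing of variation between mice. Tissue, age, treatment and gate change together between tumor and marrow and cannot be told apart.

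Complement is a set of blood and tissue proteins that mark microbes, immune complexes and dying cells for removal. C1q starts the classical pathway. It is assembled from A, B and C chains, the products of C1qa, C1qb and C1qc, each with a collagen-like stalk and a globular head, and macrophages and dendritic cells are known for making it. Cfb, factor B, supplies the protease of the alternative pathway convertase, which cleaves C3. Cfp, properdin, holds that convertase together and is stored in neutrophil granules.

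The 3 C1q genes follow each other on mouse chromosome 4, in the order C1qb, C1qc, C1qa, with no other protein-coding gene between them in RefSeq GRCm38.p6. Cfb lies on chromosome 17 between Nelfe and C2, and Cfp on the X chromosome between Timp1 and Elk1. Because the C1q genes were high and low in the same pools, the sequence just upstream of C1qb and C1qc is shown, from the RefSeq promoter table of GRCm38.p6. C1qa had no entry there, so its upstream sequence was not read. The C1qb window is chr4:136886201-136886450 and the C1qc window is chr4:136892937-136893164, both on the minus strand and both ending at the base before the gene's outermost limit in RefSeq, which trims the C1qc window to 228 bases. Capitals mark GAGGAA or its reverse complement TTCCTC, the core bound by the myeloid factor PU.1, and TGCTGA or its reverse complement TCAGCA, part of the site bound by Maf factors, both of which act in macrophages.
C1qb: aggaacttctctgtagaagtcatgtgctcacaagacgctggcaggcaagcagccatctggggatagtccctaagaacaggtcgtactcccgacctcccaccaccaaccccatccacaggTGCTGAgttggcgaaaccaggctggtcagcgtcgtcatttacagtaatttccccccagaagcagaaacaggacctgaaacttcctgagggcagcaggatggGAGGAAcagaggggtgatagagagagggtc
C1qc: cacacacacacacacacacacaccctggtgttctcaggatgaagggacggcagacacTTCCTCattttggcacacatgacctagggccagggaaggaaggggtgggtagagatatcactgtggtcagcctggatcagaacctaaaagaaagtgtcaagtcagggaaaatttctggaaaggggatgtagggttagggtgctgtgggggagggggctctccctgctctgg
The PU.1 core was found 1 time in each window, starting 30 bases before the end of the C1qb window and 171 bases before the end of the C1qc window. The Maf core was found 1 time in the C1qb window, starting 131 bases before its end, and the letters were not in the C1qc window. The 2 motifs do not overlap in the C1qb window. Of 32851 upstream windows of 250 bases in the table, 23.3% hold the PU.1 core, 16.1% the Maf core and 3.7% both, on either strand, so each match alone is common.

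Values are log2 expression values, in which a step of 1 is a 2-fold change. Values under log2 5 were taken as background, a level that 30.3% to 31.8% of probe sets reached per array. A gene was called when limma gave a Benjamini-Hochberg adjusted p under 0.05 over all 8174 genes tested and the pools also differed 2-fold or more. Where 1 pool mean lay under log2 5, it was set to 5 and the fold is a lower bound, and folds are left out where both means lay there.

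Hdc, the deleted gene, was 9.79 and 9.87 on the HDC-KO marrow arrays, against 13.14 and 13.21 on the wild-type marrow arrays, 10.2-fold lower. It was 13.02 and 13.03 on the arrays labelled HDC-KO tumor, against 13.25 and 13.23 on the wild-type tumor arrays. The deletion was therefore not visible in the tumor pool labelled HDC-KO, and directions drawn from that pool rest on its label. Neutrophil markers were present in all pools. The 9 with a probe set lay at or above log2 5 in the wild-type tumor, HDC-KO marrow and wild-type marrow pools. In the tumor pool labelled HDC-KO 8 of them did, with Elane under that level and Mpo near it at 5.43.

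Across the 5 components, the tumor pools stood apart from the marrow pools. Between the pool labelled HDC-KO tumor and HDC-KO marrow, 4 of 5 components were called, all higher, where 36.5% of all genes tested were called, 21.1% higher and 15.4% lower. Between wild-type tumor and wild-type marrow 4 of 5 were called higher, where 16.4% of all genes tested were called, 11.6% higher and 4.81% lower. Of these 4, Cfb had both pool means under log2 5, at 4.93 and 3.53. Cfp was the component not called in either comparison. Between the pool labelled HDC-KO tumor and wild-type tumor 3 of 5 were called higher (26% of all genes called, 15.5% higher and 10.5% lower), and between the marrow pools 1 of 5 (3.82% called, 1.8% higher and 2.02% lower). All 5 genes passed the filter on low values, and C1qa, C1qc and Cfb passed through the tumor arrays, where they are high. For these genes the filter favoured rises in tumor, so the counts beside the shares are a description.

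**Figure D1:**
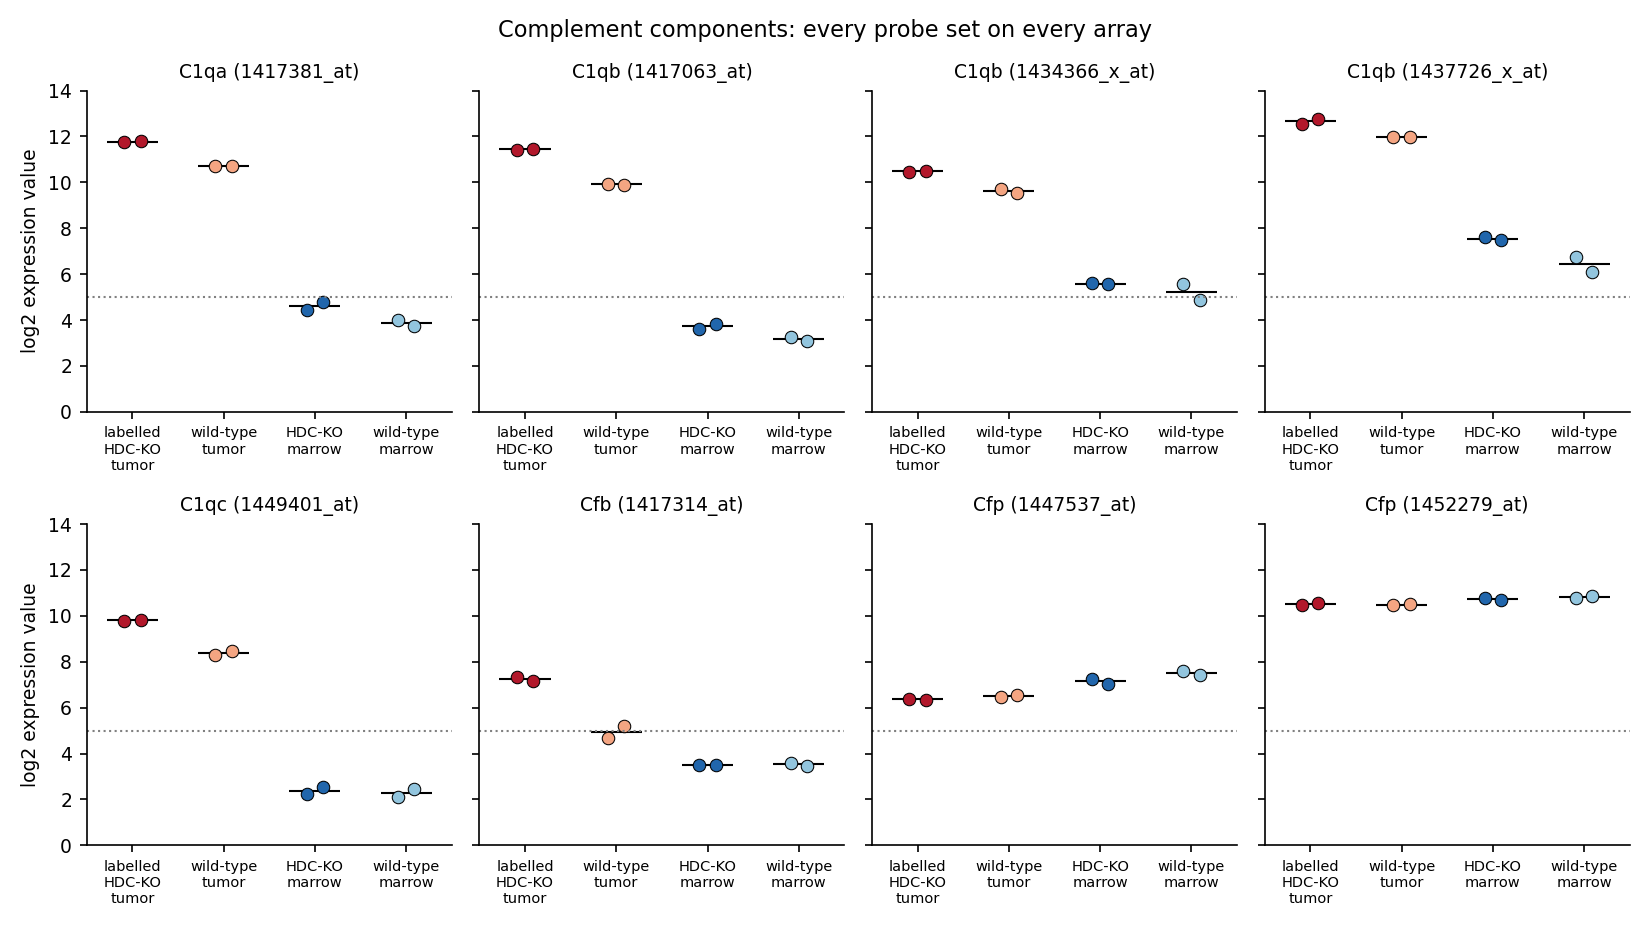
Log2 expression value (vertical axis) of each of the 8 probe sets of the complement components on each array, with points for technical arrays, a bar for the pool mean and a dotted line at log2 5. C1qa and C1qc lie under the line in both marrow pools and at 8.31 or more in both tumor pools, while both Cfp probe sets stay between log2 6 and 11 in all 4 pools.

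C1qa encodes the A chain of C1q. Its values were 11.74 and 11.79 on the arrays labelled HDC-KO tumor and 10.70 and 10.71 on the wild-type tumor arrays. In marrow they were 4.45 and 4.77 on the HDC-KO arrays, against 4.01 and 3.74 on the wild-type arrays. Both tumor pools were thus far above both marrow pools, which lay under log2 5, and no arrays of different pools overlapped.

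Wild-type tumor exceeded wild-type marrow in C1qa by a log2 difference of 6.83 ± 0.13 (SE from 2 technical arrays per pool; limma, adjusted p = 2.9e-07), at least 52.1-fold. The pool labelled HDC-KO tumor exceeded HDC-KO marrow by 7.15 ± 0.13 (limma, adjusted p = 9.5e-08), at least 109-fold. Both folds are lower bounds, since the marrow level was not measured above background. Between the tumor pools C1qa was 2.09-fold higher in the one labelled HDC-KO, by 1.06 ± 0.13 on the log2 scale (limma, adjusted p = 0.00042), just past the 2-fold threshold.

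C1qc encodes the C chain. Its values were 9.78 and 9.82 on the arrays labelled HDC-KO tumor and 8.31 and 8.47 on the wild-type tumor arrays. In marrow they were 2.22 and 2.55 on the HDC-KO arrays, against 2.09 and 2.45 on the wild-type arrays. The marrow arrays overlapped and were at background, and the tumor pools did not overlap with them or with each other.

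The tumor pool labelled HDC-KO was 2.67-fold higher in C1qc than the wild-type one, a log2 difference of 1.42 ± 0.15 (SE from 2 technical arrays per pool; limma, adjusted p = 0.00026). Wild-type tumor exceeded wild-type marrow by 6.12 ± 0.15 on the log2 scale, at least 10.5-fold (limma, adjusted p = 8.9e-07). The pool labelled HDC-KO tumor exceeded HDC-KO marrow by 7.41 ± 0.15, at least 27.9-fold (limma, adjusted p = 1.4e-07). With pool means centred, C1qa and C1qc differed by 0.28 (root mean square, log2). C1qa differed from C1qb by 0.21 on the C1qb set 1417063_at, 1.19 on 1434366_x_at and 0.85 on 1437726_x_at, so which chain is nearer turns with the C1qb probe set.

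C1qb, the gene of the B chain, has 3 probe sets, and they differ in marrow. On 1417063_at the values were 11.42 and 11.44 in the tumor pool labelled HDC-KO, 9.93 and 9.89 in wild-type tumor, 3.63 and 3.81 in HDC-KO marrow, and 3.25 and 3.07 in wild-type marrow. On 1434366_x_at they were 10.46 and 10.50, then 9.69 and 9.53, in those tumor pools, with 5.60 and 5.58 in HDC-KO marrow and 5.57 and 4.88 in wild-type marrow. On 1437726_x_at, which had the highest mean and was used in the fit over genes, they were 12.55 and 12.76 in the tumor pool labelled HDC-KO, 11.96 and 11.96 in wild-type tumor, 7.60 and 7.50 in HDC-KO marrow, and 6.76 and 6.08 in wild-type marrow. All 3 were high in the tumor pools, but marrow was under log2 5 on the first and up to log2 7.60 on the last. By the array maker's naming, the ending _x_at marks sets with probes that may also match other transcripts, and whether that sets the marrow level was not tested.

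The rise of C1qb in tumor did not depend on the probe set. In a fit over all 13505 probe sets that passed the filter, wild-type tumor exceeded wild-type marrow by 6.75, 4.39 and 5.54 on the log2 scale, in the order given above, with limma adjusted p of 9.2e-08, 1.2e-05 and 5.1e-06. The pool labelled HDC-KO tumor exceeded HDC-KO marrow by 7.72, 4.89 and 5.11, each called by limma. In folds, wild-type tumor was at least 30.1-fold above marrow on 1417063_at, whose marrow mean was under log2 5. It was 20.9-fold above on 1434366_x_at and 46.6-fold on 1437726_x_at. The fold was thus smallest on 1434366_x_at, and the other sets cannot be ranked against each other.

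The genotype differences of C1qb did depend on it. Between the tumor pools the log2 difference, labelled HDC-KO minus wild-type, was 1.52 ± 0.09, 0.87 ± 0.21 and 0.69 ± 0.21 on the 3 probe sets (SE, n = 2 technical arrays per pool). The first was called (limma, adjusted p = 1.9e-05), and the other two were under the 2-fold threshold. In the fit over genes C1qb was therefore not called between the tumor pools, with a log2 difference of 0.69 and a limma adjusted p of 0.024. With probe sets ending in _x_at or _s_at left out it was called at 1.52 (limma, adjusted p = 1.6e-05), and averaged over its probe sets at 1.03 (limma, adjusted p = 0.00076).

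Between the marrow pools C1qb was the one component called. It was 2.19-fold higher in HDC-KO than in wild-type marrow, a log2 difference of 1.13 ± 0.21 (SE from 2 technical arrays per pool; limma, adjusted p = 0.014). The other two probe sets gave 0.55 ± 0.09, with both pools under log2 5, and 0.36 ± 0.21, neither called. The call was lost at 0.79 without wild-type marrow array 2 (limma, adjusted p = 0.014), and also at 1.08 and 1.18 without HDC-KO marrow array 1 or 2 (limma, adjusted p = 0.074 and 0.06). C1qa had a marrow log2 difference of 0.74 ± 0.13 (limma, adjusted p = 0.011) and C1qc one of 0.12 ± 0.15 (limma, adjusted p = 0.63), both with both pools under log2 5.

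Markers of other cells also differed between the marrow pools in which C1qb was called. Of the 10 macrophage and monocyte markers tested, Mrc1 (1.56) and Mertk (1.08) were called higher and Adgre1 (-1.72) lower in HDC-KO marrow, as log2 differences. Mertk lay under log2 5 in both pools, and the list median was 0.63, or 0.00 with means raised to log2 5. Of the plasma and B cell markers Igha (-5.65) and Jchain (-3.82) were called lower and Cd79b (1.36) higher. Of the T and NK cell markers Cd3d (4.85) and Gzma (1.02, both pools under log2 5) were called higher and Nkg7 (-1.06) lower. Cd3d averaged 12.48 in HDC-KO marrow, where the other CD3 genes Cd3e (2.56) and Cd3g (2.91) were at background, as was Ncr1 (2.29). Cd3d alone therefore does not show T cells there. Over all genes tested 1.8% were called higher and 2.02% lower. The part of other cells in the C1qb marrow value was not tested.

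**Figure D2:**
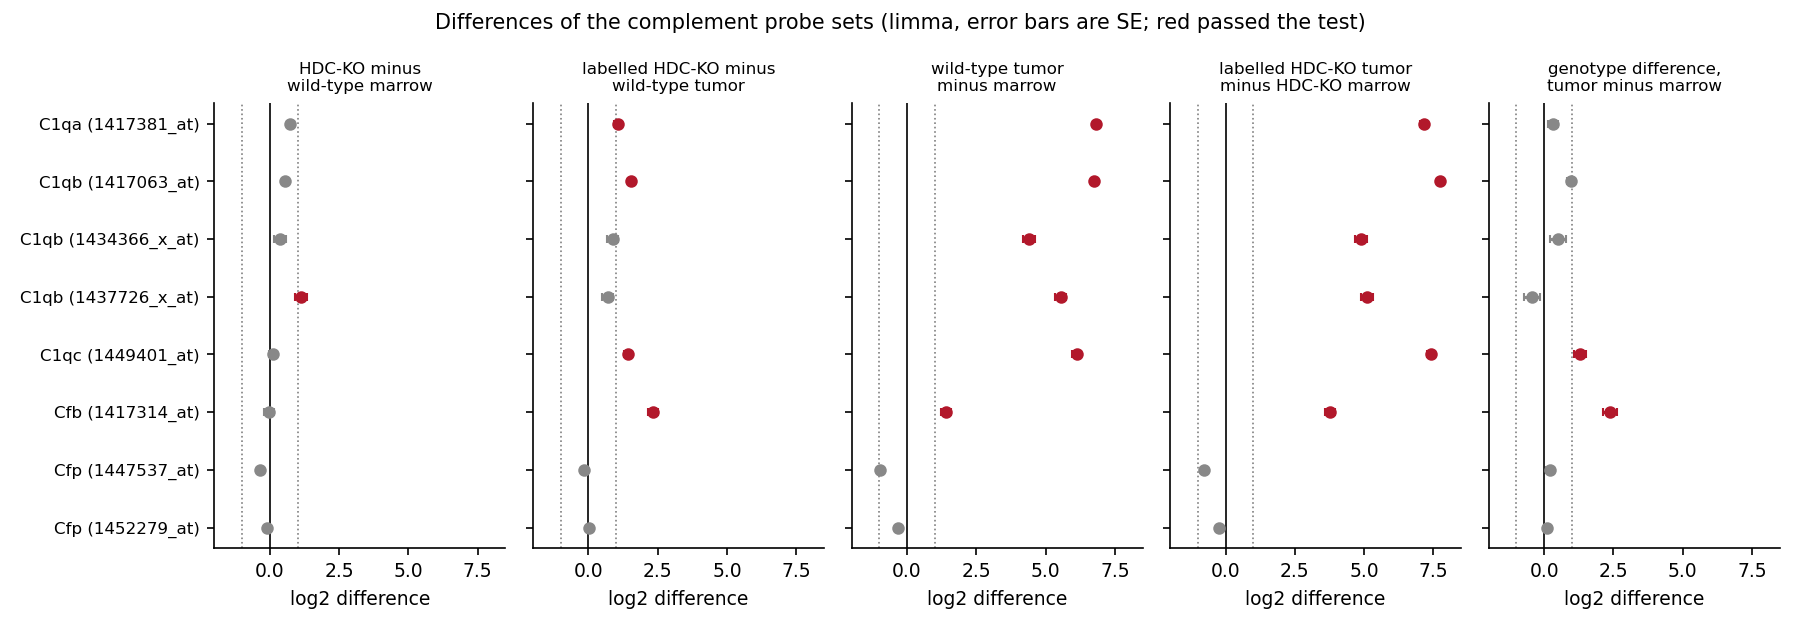
Log2 difference (horizontal axis) of each probe set in the 5 comparisons, from the limma fit over all probe sets; bars are SE, dotted lines mark 2-fold and red points passed the test. The 3 C1qb probe sets lie at 4.39 to 7.72 in the tumor against marrow panels, and only 1437726_x_at passed between the marrow pools.

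Cfb was low or at background outside 1 pool. Its values were 7.35 and 7.18 on the arrays labelled HDC-KO tumor and 4.66 and 5.21 on the wild-type tumor arrays. In marrow they were 3.49 and 3.48 on the HDC-KO arrays, against 3.60 and 3.45 on the wild-type arrays. The 2 arrays labelled HDC-KO tumor were above all others, the wild-type tumor arrays lay on either side of log2 5, and the marrow arrays overlapped at background.

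Between the tumor pools Cfb was at least 4.81-fold higher in the pool labelled HDC-KO, with a measured log2 difference of 2.34 ± 0.18 (SE from 2 technical arrays per pool; limma, adjusted p = 5.1e-05). This was the largest difference of the 5 components between these pools. The pool labelled HDC-KO tumor exceeded HDC-KO marrow by 3.78 ± 0.18, also at least 4.81-fold (limma, adjusted p = 3.3e-06). Wild-type tumor exceeded wild-type marrow by 1.40 ± 0.18 (limma, adjusted p = 9e-04), but both pool means lay under log2 5, and with values raised to log2 5 the difference was 0.10 and was not called (limma, adjusted p = 0.37).

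Cfp, properdin, was the component expressed in all pools at nearly one level. On its brighter probe set the values were 10.48 and 10.54 in the tumor pool labelled HDC-KO and 10.45 and 10.52 in wild-type tumor. In marrow they were 10.79 and 10.67 in the HDC-KO pool and 10.77 and 10.86 in the wild-type pool. The tumor arrays overlapped with each other, as did the marrow arrays, and the tumor arrays were all below the marrow ones.

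None of the 5 Cfp comparisons was called by limma, since all were under 2-fold, and 2 of them, those of tumor with marrow, had an unadjusted p under 0.05. Wild-type tumor was below wild-type marrow by a log2 difference of -0.33 (limma 95% interval -0.50 to -0.17), and the pool labelled HDC-KO tumor was below HDC-KO marrow by -0.22 (-0.38 to -0.05). Between the tumor pools the difference was 0.02 (-0.14 to 0.19) and between the marrow pools -0.09 (-0.25 to 0.07). On this probe set each interval excludes a 2-fold difference between these pools as measured on technical arrays. The dimmer probe set, 1447537_at, was 6.39 and 6.33 in the tumor pool labelled HDC-KO, 6.47 and 6.56 in wild-type tumor, 7.26 and 7.03 in HDC-KO marrow, and 7.60 and 7.42 in wild-type marrow. It gave -0.99 ± 0.10 for wild-type tumor against marrow (limma, adjusted p = 0.00036), just inside the 2-fold threshold. The limma 95% interval was -1.24 to -0.75 there, and -1.03 to -0.54 for the pool labelled HDC-KO tumor against HDC-KO marrow. Both intervals hold a 2-fold fall, so the probe sets differ in the size of a change of the same direction.

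For C1qa, C1qc and all 3 C1qb probe sets the tumor pool labelled HDC-KO was highest, wild-type tumor came next and the marrow pools were lowest. The marrow pools have no order for C1qa, C1qc and the C1qb set 1417063_at, since both lay under log2 5, nor on 1434366_x_at, where the limma 95% interval of the difference, -0.14 to 0.86, held 0. On 1437726_x_at alone HDC-KO marrow stood above wild-type marrow with both above log2 5. Cfp ran the other way between tissues.

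Whether the genotype difference itself differed between tissues was tested as an interaction, tumor minus marrow, where 28.5% of all genes tested were called, 16.8% higher and 11.7% lower. For Cfb the difference of differences was 2.38 ± 0.25 on the log2 scale (SE from 2 technical arrays per pool; limma, adjusted p = 0.00032), and for C1qc 1.30 ± 0.22 (limma, adjusted p = 0.0024). Both marrow pools lay under log2 5 for both genes, so a genotype difference in marrow could not be measured for them. For Cfb and C1qc the test therefore cannot decide whether the genotype difference differed between tissues. The other three components were not called. C1qa had 0.32 ± 0.18 (limma, adjusted p = 0.16). Raising values to log2 5 sets every C1qa marrow array to 5. The 1.06 called then (limma, adjusted p = 1.9e-05) is therefore the tumor difference alone. C1qb had -0.44 ± 0.30 on the probe set used and 0.97 and 0.51 on 1417063_at and 1434366_x_at, so its direction turns with the probe set, and Cfp had 0.11 ± 0.10.

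Markers of other cells moved with these genes. Of 12 macrophage and monocyte markers with a probe set, 10 were tested and all 10 rose between wild-type tumor and wild-type marrow, although with means raised to log2 5 Cd163 differed by 0.50, under 2-fold. Their median log2 difference was 3.20, or 2.45 with means raised to log2 5, against a median of -0.034 over all genes tested. In that comparison 11.6% of all genes tested rose and 4.81% fell. Of the 10, 5 had a wild-type marrow mean under log2 5 and passed the filter through tumor arrays. For these the filter favoured rises, so the count is a description. Between the pool labelled HDC-KO tumor and wild-type tumor 7 of the 10 rose, where 15.5% of all genes tested rose and 10.5% fell. The median of the 10 was 1.39, against 0.03 over all genes. The C1q genes gave 1.06 (C1qa), 0.69 (C1qb) and 1.42 (C1qc) beside that median. The log2 of the summed level of the 12 markers was 15.03 to 15.06 in the tumor pool labelled HDC-KO, 13.86 to 13.94 in wild-type tumor, 11.76 in HDC-KO marrow and 11.42 to 11.44 in wild-type marrow. Siglec1 and Trem2 were under log2 5 in all 4 pools, and Cd163, Cx3cr1, Fcgr1 and Mertk were under it in both marrow pools. In such bulk samples more cells of a type and more RNA per cell cannot be told apart, and the part of macrophage content in the C1q values was not tested.

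Epithelial genes moved as well. All 12 intestinal epithelial markers rose between wild-type tumor and marrow, with a median of 5.01, or 3.19 with means raised to log2 5, where Cldn3 and Vil1 were under 2-fold at 0.15 and 0.62. In addition, 11 of 12 rose between the pool labelled HDC-KO tumor and wild-type tumor, with a median of 2.77. The shares of all genes tested that rose in these comparisons were 11.6% and 15.5%, in that order. Of the 12, 11 had a wild-type marrow mean under log2 5 and passed the filter through tumor arrays. The filter thus favoured rises over marrow, and that count is a description. Cfb gave 2.34 between these tumor pools, where its wild-type mean was at background. The log2 of their summed level was 14.80 to 14.89 in the tumor pool labelled HDC-KO, 12.39 in wild-type tumor, 7.81 to 7.96 in HDC-KO marrow and 7.71 to 7.99 in wild-type marrow, and in marrow all but Lgals4 were under log2 5. The part of epithelial RNA in the Cfb value was not tested. Between the tumor pools the medians of other lists were 2.21 (dendritic), 1.99 (B and plasma) and 2.50 (T and NK). The T and NK median was 0.56 with means raised to log2 5. Cfb thus lay near several list medians, and its source was not tested. All 4 hepatocyte markers and all 10 stromal markers, of other cells known to make complement, lay under log2 5 in every pool.

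**Figure D3:**
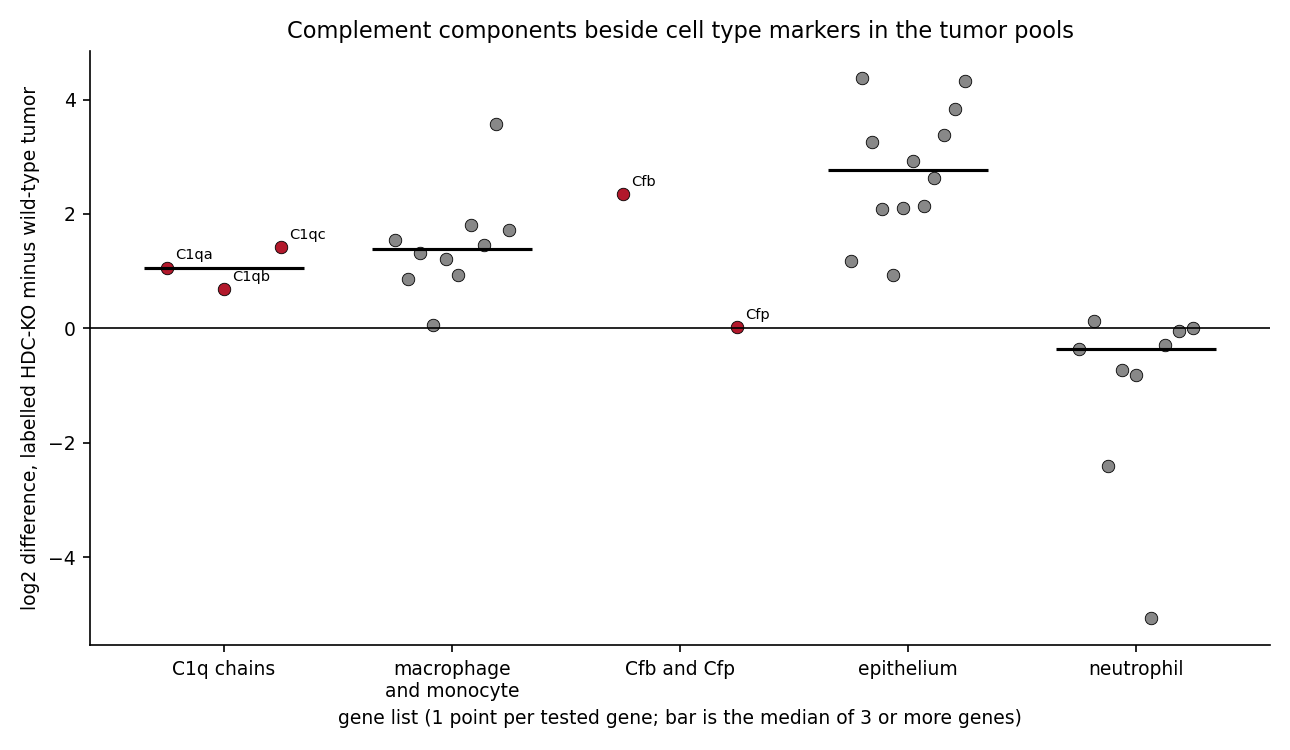
Log2 difference, pool labelled HDC-KO minus wild-type tumor (vertical axis), of each tested gene of the C1q chains, Cfb and Cfp (red) and of 3 marker lists (grey), with the median of each list of 3 or more genes as a bar. The C1q genes lie at 0.69 to 1.42, Cfb at 2.34 and Cfp at 0.02. The list medians are 1.39 (macrophage and monocyte), 2.77 (epithelium) and -0.36 (neutrophil). Lists not drawn include dendritic (median 2.21), B and plasma (1.99) and T and NK (2.50) markers, so the drawing does not pair a component with a cell type.

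Dendritic cell and neutrophil markers were read in the same way. Of 5 dendritic markers with a probe set 3 were tested, H2-Ab1, Cd74 and Itgax. These 3 rose in both tumor against marrow comparisons and between the tumor pools, where their median was 2.21. H2-Ab1 and Itgax had marrow means under log2 5, so the filter favoured their rises over marrow. Flt3 and Zbtb46 did not reach the level for testing. Zbtb46 was under log2 5 in every pool, with means of at most 3.42. Flt3 had a mean above log2 5 in the tumor pool labelled HDC-KO alone, at 5.21, from arrays at 4.94 and 5.48. With values raised to log2 5, Itgax differed by 0.76 between wild-type tumor and marrow and was not called. None of the 9 neutrophil markers rose between the tumor pools and 2 fell, Mpo (-5.07, to log2 5.43) and Elane (-2.41, to log2 3.87). Over all genes tested 15.5% rose and 10.5% fell there. The neutrophil median was -0.36, beside the Cfp difference of 0.02. The log2 of the summed neutrophil markers was 17.10 to 17.11 in the tumor pool labelled HDC-KO, 17.35 to 17.39 in wild-type tumor, 17.46 to 17.48 in HDC-KO marrow and 17.45 to 17.46 in wild-type marrow.

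Of 50 further genes of the pathway 40 had a probe set, and 18 of these (45%) reached the level for testing, against 44.9% of all named genes. Among those not tested were C1ra, C1s1 and C2, the proteases that C1q activates or that follow it, the lectins Mbl1 and Mbl2 with their proteases Masp1 and Masp2, and C8a, C8b, C8g and C9 of the membrane attack complex. C1q mRNA was therefore measured in the tumor pools while C1ra, C1s1 and C2 mRNA was not above background there, at means of at most log2 3.49, 2.41 and 2.81 in any pool. Of the 18 genes tested, 10 rose and 4 fell between the pool labelled HDC-KO tumor and HDC-KO marrow, where 21.1% of all genes tested rose and 15.4% fell. Between wild-type tumor and marrow 8 rose and 0 fell, where 11.6% rose and 4.81% fell. All 8 had a wild-type marrow mean under log2 5 and passed the filter through tumor arrays, so the filter favoured rises and the counts are a description. The median log2 difference of the 18 was 1.83 in the HDC-KO comparison, or 1.34 with means raised to log2 5. In the wild-type comparison it was 0.68, or 0.20 with means raised. Of the 8 called between wild-type tumor and marrow, Cr2 had both pool means under log2 5. Its call was lost at 0.88 without wild-type tumor array 2.

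Among the molecules that recognise targets, the ficolins parted. Fcna, ficolin A, a lectin made by macrophages, was 11.19 and 11.31 in the tumor pool labelled HDC-KO, 7.51 and 7.55 in wild-type tumor, 4.49 and 4.88 in HDC-KO marrow, and 3.53 and 3.78 in wild-type marrow. Fcnb, ficolin B, a granule lectin of neutrophil precursors, was 7.40 and 6.94 in the tumor pool labelled HDC-KO, against 11.29 and 11.20 in wild-type tumor. In marrow it was 11.54 on both HDC-KO arrays and 11.61 and 11.60 on the wild-type arrays. Fcna, like the C1q genes, was highest in the tumor pool labelled HDC-KO and next in wild-type tumor, with both marrow pools under log2 5, and Fcnb was low in 1 pool only. Between the tumor pools Fcna was 13.1-fold higher and Fcnb 16.9-fold lower in the one labelled HDC-KO (limma, adjusted p = 3.7e-06 and 2.6e-06). The collectin Colec12, a scavenger receptor that can activate complement, was 9.13 and 9.12, then 8.48 and 8.51, in these tumor pools, and under log2 5 in marrow, at least 11.3-fold higher in wild-type tumor than in wild-type marrow.

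Fcna and Colec12 were also the 2 pathway genes called between the marrow pools, both higher in HDC-KO, with log2 differences of 1.03 and 1.05. Of the pathway list 18 genes were tested, and over all genes tested 1.8% were called higher there. Both pools lay under log2 5 for both genes, so no fold is given. Each call was lost when an array was left out, Fcna at 0.84 without HDC-KO marrow array 2 and at 0.90 without wild-type marrow array 1, and Colec12 at 0.91 without HDC-KO marrow array 2 and at 0.91 without wild-type marrow array 2. With values raised to log2 5 both differences were 0.00.

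Of the 10 tested receptors and binding partners, 5 rose and 0 fell between the pool labelled HDC-KO tumor and wild-type tumor. Over all genes tested 15.5% rose and 10.5% fell there, and of all 18 pathway genes tested 7 rose and 3 fell. Lrp1, an endocytic receptor that takes up C1q-coated material, averaged 9.92 ± 0.20 in the tumor pool labelled HDC-KO and 8.10 ± 0.14 in wild-type tumor (SD, n = 2 technical arrays), and was under log2 5 in marrow. It was 3.52-fold higher in the tumor pool labelled HDC-KO than in wild-type tumor. Cr2, the complement receptor of B cells and follicular dendritic cells, was 7.31 and 7.51 in the pool labelled HDC-KO, against 3.62 and 4.02 in wild-type tumor, at least 5.32-fold higher. Itgax, a chain of complement receptor CR4, rose 4.64-fold. C1qbp, a binding protein of the C1q head, and Calr, calreticulin, which binds C1q on dying cells, rose 2.22-fold and 2.03-fold, but the other detected probe sets gave log2 differences of 0.76 (C1qbp) and 0.86 (both of Calr), under the threshold. The Calr call was lost at 0.94 without array 1 labelled HDC-KO tumor and at 0.99 without wild-type tumor array 2.

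The anaphylatoxin receptors differed from each other. C3ar1, the receptor for C3a, was 7.43 and 6.66 in the tumor pool labelled HDC-KO and 7.70 and 7.35 in wild-type tumor, with all marrow arrays at or under 3.54. It was at least 5.75-fold higher in wild-type tumor than in marrow and was not called between the tumor pools (log2 difference -0.48 ± 0.30). C5ar1, the receptor for C5a, lay between 10.94 and 11.46 on all 8 arrays and was not called in any comparison by limma, with its other detected probe set at -1.25 and called in the test of the difference of genotype differences. Itgam, which is CD11b of the sort and a chain of complement receptor CR3, was 2.18-fold lower in the pool labelled HDC-KO tumor than in HDC-KO marrow.

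Cd93, a surface protein once described as a C1q receptor, was 9.91 and 9.87 in the tumor pool labelled HDC-KO, 9.11 and 9.11 in wild-type tumor, 8.01 and 7.91 in HDC-KO marrow, and 8.92 and 8.97 in wild-type marrow. HDC-KO marrow was the lowest pool. Its genotype difference was -0.99 in marrow and 0.78 in tumor, and the difference of these was called at 1.77 ± 0.08 (limma, adjusted p = 1.2e-05). On its other probe set the marrow and tumor differences were -1.19 and 1.06, both called by limma. Averaged over all its probe sets, the difference of genotype differences was 0.98 and was not called.

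Among the regulators, Cd55, decay-accelerating factor, which takes convertases apart, was 8.05 on both arrays labelled HDC-KO tumor, against 9.31 and 9.13 in wild-type tumor, 2.24-fold lower (limma, adjusted p = 2.1e-05). Cr1l, also called Crry, a regulator on mouse cells, lay between 10.79 and 10.94 on all arrays and was not called. Clu, clusterin, an inhibitor of the membrane attack complex, was at least 2.35-fold higher in wild-type tumor than in marrow. Of the terminal components, Hc, which encodes C5, was 3.92 and 3.73 in the tumor pool labelled HDC-KO, 6.98 and 7.06 in wild-type tumor, 4.99 and 5.21 in HDC-KO marrow, and 4.48 and 4.21 in wild-type marrow. It was highest in wild-type tumor, and at least 4.07-fold lower in the tumor pool labelled HDC-KO (limma, adjusted p = 3.6e-06). C6, of the membrane attack complex, reached log2 5 in the tumor pool labelled HDC-KO alone, at 5.52 and 5.68.

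**Figure D4:**
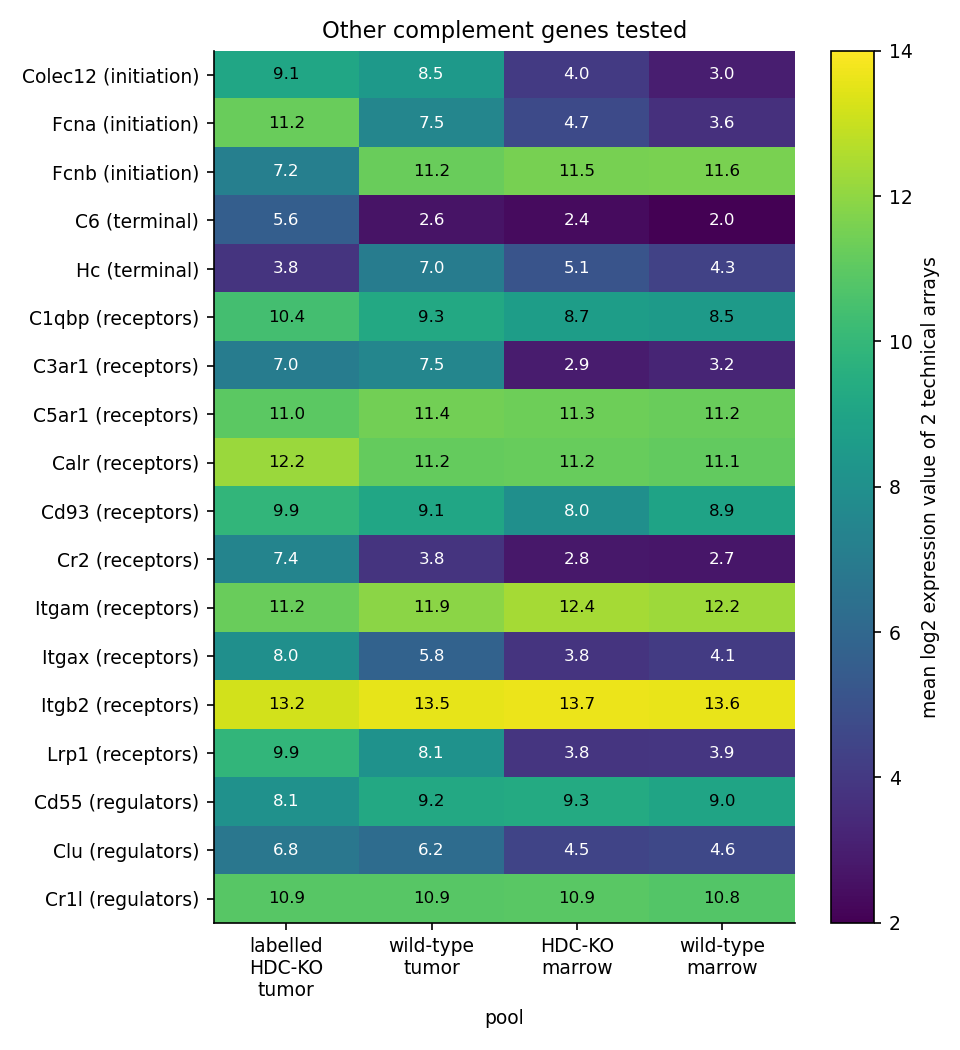
Mean log2 expression value of 2 technical arrays (colour and printed number) of the 18 other complement genes tested, with genes in rows by role and pools in columns. Fcna, Lrp1 and Colec12 are higher in both tumor pools than in marrow, Fcnb is lowest in the tumor pool labelled HDC-KO, and Hc is highest in wild-type tumor.

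The genes whose pattern was most like each component were sought among 3456 genes spanning at least 1 on the log2 scale, by the root mean square difference of the 4 centred pool means. For C1qa they were Apoe (0.17), Abca1 (0.40), Pdxdc1 (0.41) and Sdc1 (0.42). For C1qb they were Colec12 (0.04), P2ry6 (0.21), Hspa1b (0.22) and Itgb5 (0.25), and for C1qc Saa3 (0.21), Pdxdc1 (0.24), Jun (0.26) and Clca4a (0.28). For Cfb they were Pde9a (0.03), Hadh (0.04), Zc3h12d (0.04) and Aqp4 (0.06). Cfp spanned 0.33 over the pools, less than any gene searched, and its nearest genes, Adssl1, Abhd16a, Ppp2r5d and Ctdspl2, differed from it by 0.25 to 0.27. Over 4 pools such likeness is a description. For Cfb, Pde9a, Zc3h12d and Aqp4 the marrow pools, and for most of them wild-type tumor, lay at or under log2 5, as did the marrow pools for most genes listed for the C1q chains, so these distances partly compare background values. The C1qb genes rest on its 1437726_x_at set.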

How the data were processed

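Biotinylated cRNA from sorted CD11b+Gr-1+ cells was measured on Affymetrix arrays, per the labels' protocols. The authors deposited GCRMA values, per the submitters' processing notes, and their range is that of a log2 scale. A software version and a genome build were not given in the sources used here. Depth does not apply, and the number of arrays limits the precision. Arrays were grouped by title.

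Names came from GEO's platform annotation, in which 34958 probe sets had 1 gene, 932 several and 9211 none. For each gene the probe set with the highest mean was kept. A gene was tested if 2 or more arrays reached log2 5, which left 8174 genes. The test was limma's moderated fit (version 3.58.1, R 4.3.3; 4 groups, 4 residual and 2.14 prior degrees of freedom), in 5 contrasts. All probe sets of the components were also fitted among 13505 probe sets. Errors of differences are moderated standard errors. The fit was tested on simulated data.

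The components and gene lists were chosen with earlier results of these data known. Named genes are the components, Hdc, called or detected genes of the pathway list, and the 4 genes nearest to each component by centred pool means, without other components or predicted genes. Marker lists covered macrophages and monocytes, neutrophils, epithelium, stroma, dendritic, B and plasma, T and NK, erythroid and liver cells. The alternatives tried were quantile normalization, values raised to log2 5, filters at log2 7 or none, other treatments of probe sets, a trended and robust variance, the compared groups alone, averaged arrays, a block for replicate number and leaving out each array. Genome coordinates are from RefSeq GRCm38.p6 and belong to the printed sequences, not to the probe sets. Python 3.11.15 was used for annotation and figures.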

Additional observations from a re-analysis of the deposited data

Results flagged for a closer look

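For 2 components, Cfb and C1qc, the interaction test was called. Both marrow pools were at background for both genes, so a marrow difference could not be measured. The test therefore cannot decide whether the HDC-KO minus wild-type difference differed between tumor and marrow. For Cfb the difference of differences was 2.38 on the log2 scale (limma, adjusted p = 0.00032), made of 2.34 between the tumor pools and -0.04 between the marrow pools, which were at background. For C1qc it was 1.30 (limma, adjusted p = 0.0024), made of 1.42 in tumor and 0.12 in marrow, again at background. Both values rest on the pool labelled HDC-KO tumor, whose Hdc level was that of a pool with the gene. With 2 arrays a group, no group was large enough to look for single arrays that stand apart.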

How the results depend on the processing

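Of the components, C1qb in marrow depended most on the processing. The number of components called between HDC-KO and wild-type marrow was 1, and 0 with the mean of probe sets, 0 without probe sets ending in _x_at or _s_at, 0 with only the groups compared, and 0 to 1 when an array was left out. The number of other pathway genes called there was 2, against 0 with values raised to log2 5 and 0 to 3 when an array was left out. In the other 4 comparisons the counts of components and of pathway genes stayed within 1.5 times under all alternatives run. No log2 difference of a called component changed sign. The replicate number used as a block gave 312 genes called in marrow and 2122 in tumor, as without it, and changed no call of a component. Same-numbered arrays did not deviate together (correlations of -0.01 to 0.06 over 6 pairs), and the labels do not tie the numbers to a shared animal or day. Levels under log2 5 limit Cfb, C1qa and C1qc in marrow, for which fold changes are bounds, and differences between mice could not be measured.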

Other observations

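Lymphocyte and red cell genes also differed between the tumor pools, where 15.5% of all genes tested rose and 10.5% fell. Of 4 tested B and plasma cell markers, Cd79b and Ms4a1 rose in the tumor pool labelled HDC-KO relative to wild-type tumor and none fell, with a list median of 1.99. Of 5 tested T and NK cell markers 3 rose, Cd3g, Gzma and Ncr1, and Cd3d fell, though Cd3g was under 2-fold with means raised to log2 5. Cd3d averaged 12.03 in wild-type tumor, where Cd3e, Cd3g and Ncr1 were under log2 5. Both tested erythroid markers, Alas2 and Slc4a1, rose, though Alas2 differed by 0.59, under 2-fold, with means raised to log2 5. Hba-a1 was not tested, with pool means of at most log2 2.49. Cr2, which B cells carry, was higher in the same pool, and the part of B cells in its level was not tested.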
